A study of Mus musculus with 14 samples.

Results

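Adult small intestinal villi were compared with adult small intestinal crypts, the question being which genes differ between the epithelial compartment that divides and the one that absorbs. The comparison used 6 of the series' 14 arrays, all in 1 table of 8 arrays: 3 labelled as crypts (K12, K21 and K41 in the labels) and 3 labelled as villi (V12, V41 and V275). Each sample came from a C57BL/6 mouse aged 12 weeks, and no treatment or altered gene is named for either group. Some crypt and villus samples share a number, but no label ties them to 1 animal, and the p-values measure only the spread between these samples. The remaining arrays, of embryonic endoderm and mesenchyme, entered no test here. All probe sets annotated to a single gene symbol were used, 20393 of 22690, and they cover 12394 genes. Of these genes, 9806 were tested, those with a log2 signal above 5.86, the 30th percentile over the table, in at least 3 of the 6 arrays.

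Crypts are pockets of the intestinal lining that hold stem cells, rapidly dividing progenitors and the antimicrobial Paneth cells. The progeny move up onto the villi, where absorptive enterocytes take up nutrients through a brush border of microvilli for a few days before they are shed. The change from one state to the other is known to involve a stop of cell division, a new set of carriers and enzymes and a rebuilding of the cell surface and its membrane traffic. These are bulk samples, so fewer cells of a type and less RNA per cell cannot be told apart.

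In limma, 3176 genes (32.4% of those tested) had a Benjamini-Hochberg adjusted p under 0.05, and such genes are said below to have risen or fallen, or to be higher or lower in villi. They divided into 1684 higher (17.2%) and 1492 lower in villi (15.2%), of which 1032 (10.5%) and 697 (7.11%) differed by at least 2-fold. After quantile normalization the split was 1492 higher and 1808 lower, or 860 and 883 at 2-fold, a smaller share of rises. In 4724 genes (48.2%) the arrays of the groups did not overlap. The median difference over all genes was -0.00068. Without crypt K21 the test called 1974 genes. Correlations of arrays over genes were 0.9345 to 0.9703 within a group and 0.667 to 0.854 between groups. On a scale where the mean crypt profile is 0 and the mean villus profile is 1, each array placed without its own values, villus V12 stood at 0.76 and crypt K41 at 0.163, nearest to the other group, and villus V41 at 1.14. Villus V41 was the highest villus array for 56.5% of the genes called higher and the lowest for 66.7% of those called lower.

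**Figure D1:**
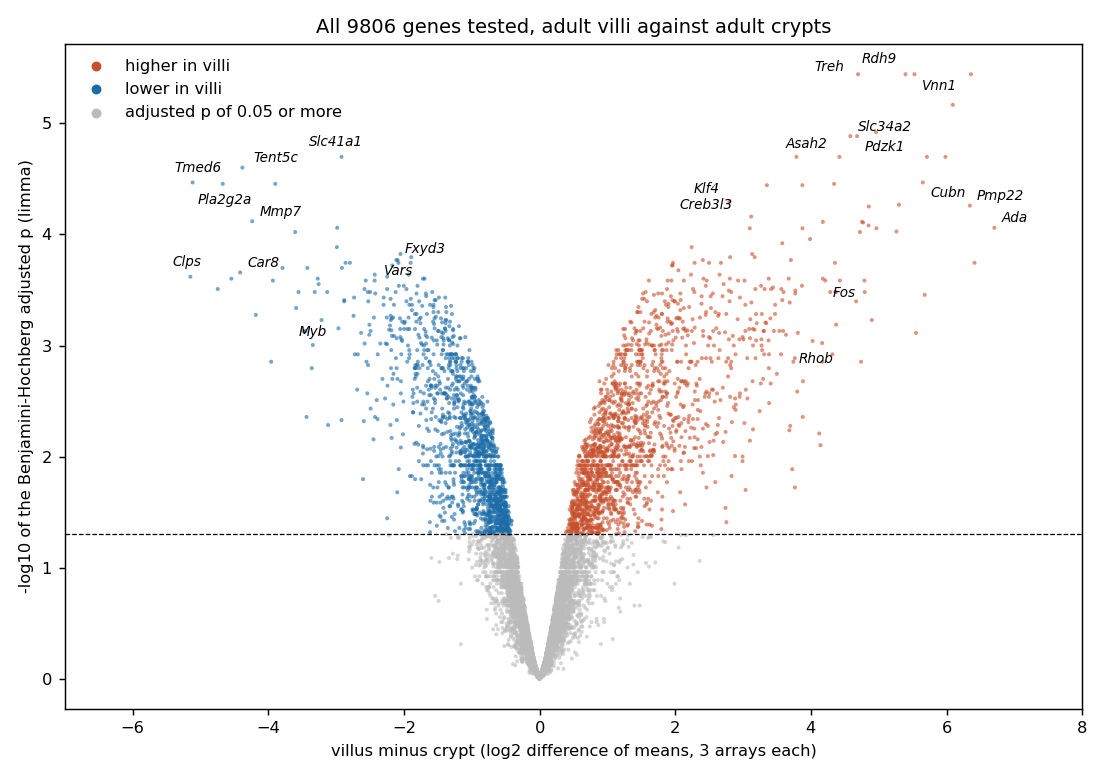
Each point is 1 of 9806 genes, with the villus minus crypt log2 difference on the horizontal axis and the negative log10 of the limma adjusted p on the vertical axis; the dashed line marks 0.05. The called genes form 2 arms of 1684 rises and 1492 falls, with Ada, Apoc3 and Pmp22 farthest out among the rises and Clps and Tmed6 among the falls.

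All values below are log2 signals. Where a gene's 3 crypt values are given they are in the order K12, K21 and K41, and villus values are in the order V12, V41 and V275. Differences are villus minus crypt, ± SE from limma. Counts of rises and falls in a list stand beside shares of 17.2% and 15.2% over all genes tested. For counts at an unadjusted p under 0.05 (limma), the share over all genes tested is 42.6%, both directions together. Signals under the 30th percentile are called near background, and the size of a difference from such a level is not exact. That applied to the lower group for 11 of the 40 largest rises and 9 of the 40 largest falls.

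The largest changes reached well past the known absorptive and Paneth cell genes. Vnn1, the pantetheinase gene of coenzyme A turnover, stood at 5.45, 5.60 and 5.61 in crypts and at 11.11, 10.85 and 11.27 in villi. The crypt values were near background and the villus arrays lay within 0.42 of each other. Its difference was 5.53 ± 0.16 (limma adjusted p = 3.6e-06). Susd2, a surface glycoprotein gene, rose by 4.97 ± 0.30, and Tmigd1, an immunoglobulin-like adhesion gene of the epithelium, by 5.55 ± 0.62. Ccng2, an atypical cyclin gene linked to withdrawal from the cell cycle, stood at 6.42, 6.54 and 6.51 in crypts and at 10.30, 11.82 and 10.62 in villi, with villus V41 the highest, and rose by 4.43 ± 0.36. Aspa, which encodes an enzyme that cleaves acetylaspartate, rose by 4.18 ± 0.24, and Selenop, the gene of the secreted selenium carrier, by 3.79 ± 0.16. Pdlim2, an adaptor gene of actin fibres, rose by 4.67 ± 0.43. On the other side, Nucb2, a calcium-binding secretory pathway gene, stood at 9.81, 9.78 and 9.24 in crypts and at 5.54, 5.75 and 5.85 in villi. The groups were far apart and the villus values near background, with a difference of -3.90 ± 0.19 (limma adjusted p = 3.5e-05). Nupr1, a small stress-responsive nuclear protein gene, fell with a difference of -3.93 ± 0.31, and Hpd, the tyrosine breakdown enzyme gene, with -3.79 ± 0.28. Tceal9, a gene of the transcription elongation factor A-like family, differed by -2.98 ± 0.18, and Ifitm2, a membrane protein gene of antiviral defence, by -3.21 ± 0.33.

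Promoter sequences from RefSeq (GRCm38.p6) were set beside these changes for the 7889 tested genes that had one, in windows of 300 bases that run from 250 before to 50 after the start. Motifs were searched on both strands, and a match is a description only. The letters AAAGTCC, a core of sites known for the nuclear receptor Hnf4a, were found in 4.42% of the promoters of tested genes and in 4.25% of all 27025 promoters. They occurred in 6.67% of the promoters of genes called higher, 3.54% of those called lower and 6 of 34 among the 40 largest rises. In the same 34, AGATAA was in 5 (14.7%, beside 7.06% of tested genes) and TGACTCA in 4 (11.8%, beside 3.95%). Of 27 promoters among the 40 largest falls, AAAGTCC was in 0, AGATAA in 4 and TGACTCA in 2. Of the promoters with AAAGTCC, 3 of villus genes are shown, chosen after the values were seen. They cover the 250 bases before the start, with only the matches of AAAGTCC in capitals. Treh encodes trehalase of the brush border (4.69 ± 0.14), Rbp2 the retinol carrier of enterocytes (4.96 ± 0.18), and Slc3a1 a subunit of the cystine carrier (4.28 ± 0.37).
Treh, chr9:44672983-44673232 (+ strand): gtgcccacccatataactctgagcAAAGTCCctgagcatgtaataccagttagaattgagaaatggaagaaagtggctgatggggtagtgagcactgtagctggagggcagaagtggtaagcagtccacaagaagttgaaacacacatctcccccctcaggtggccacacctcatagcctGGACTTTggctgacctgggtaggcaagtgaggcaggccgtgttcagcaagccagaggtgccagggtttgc
Rbp2, chr9:98490287-98490536 (+ strand): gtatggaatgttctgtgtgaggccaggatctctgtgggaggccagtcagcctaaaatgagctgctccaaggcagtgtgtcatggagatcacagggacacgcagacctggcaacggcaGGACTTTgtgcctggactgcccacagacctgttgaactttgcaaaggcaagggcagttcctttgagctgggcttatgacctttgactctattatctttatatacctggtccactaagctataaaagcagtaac
Slc3a1, chr17:85028097-85028346 (+ strand): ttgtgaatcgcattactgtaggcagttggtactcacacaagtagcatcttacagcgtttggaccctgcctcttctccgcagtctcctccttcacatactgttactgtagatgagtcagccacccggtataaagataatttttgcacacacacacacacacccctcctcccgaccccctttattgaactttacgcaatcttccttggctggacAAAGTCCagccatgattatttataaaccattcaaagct
The Treh window held 2 matches of AAAGTCC, and the Rbp2 and Slc3a1 windows 1 each, all on GRCm38.p6.

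The ER stress element, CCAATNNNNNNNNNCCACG, is the sequence through which the unfolded protein response is known to raise chaperone genes. It overlaps the CCAAT box, CCAAT, which 38.3% of the promoters of tested genes held. The whole element was in 0.203% of the promoters of tested genes, but in 11 of 65 promoters among the genes of ER folding and the unfolded protein response, a list used below. Of those 11 genes 3 fell in villi, beside 32 of the 76 tested genes of the whole list (42.1%). The promoters of the 3 are shown with the fixed letters in capitals, again chosen after the values were seen. Pdia6 encodes a disulfide isomerase (-1.67 ± 0.15), Dnajc3 a co-chaperone (-0.90 ± 0.19) and Hspa5 the main ER chaperone (-0.70 ± 0.17).
Pdia6, chr12:17266339-17266588 (+ strand): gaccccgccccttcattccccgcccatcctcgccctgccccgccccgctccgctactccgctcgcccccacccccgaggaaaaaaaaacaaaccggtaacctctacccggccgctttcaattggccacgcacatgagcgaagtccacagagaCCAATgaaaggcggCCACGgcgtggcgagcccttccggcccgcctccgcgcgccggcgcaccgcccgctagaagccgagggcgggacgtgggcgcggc
Dnajc3, chr14:118937682-118937931 (+ strand): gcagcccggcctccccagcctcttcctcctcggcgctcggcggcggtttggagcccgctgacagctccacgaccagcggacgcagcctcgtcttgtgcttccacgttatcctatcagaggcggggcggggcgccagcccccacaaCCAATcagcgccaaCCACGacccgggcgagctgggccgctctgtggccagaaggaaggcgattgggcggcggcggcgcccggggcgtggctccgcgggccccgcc
Hspa5, chr2:34771840-34772089 (+ strand): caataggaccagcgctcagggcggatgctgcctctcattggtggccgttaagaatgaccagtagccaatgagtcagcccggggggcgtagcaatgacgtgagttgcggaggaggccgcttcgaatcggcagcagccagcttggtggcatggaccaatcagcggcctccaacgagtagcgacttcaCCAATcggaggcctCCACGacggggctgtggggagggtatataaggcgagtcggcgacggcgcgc
With the median of a gene's probe sets the differences were -0.77 for Pdia6, -0.60 for Dnajc3 and -0.51 for Hspa5, and the limma adjusted p of the last 2 were 0.061 and 0.096. Quantile normalization put Hspa5 at -1.25. The other 8 genes with the element had adjusted p of 0.072 (Hsp90b1) or more, and Calr, which encodes calreticulin, stood at 11.98 in crypts and 12.11 in villi.

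**Figure D2:**
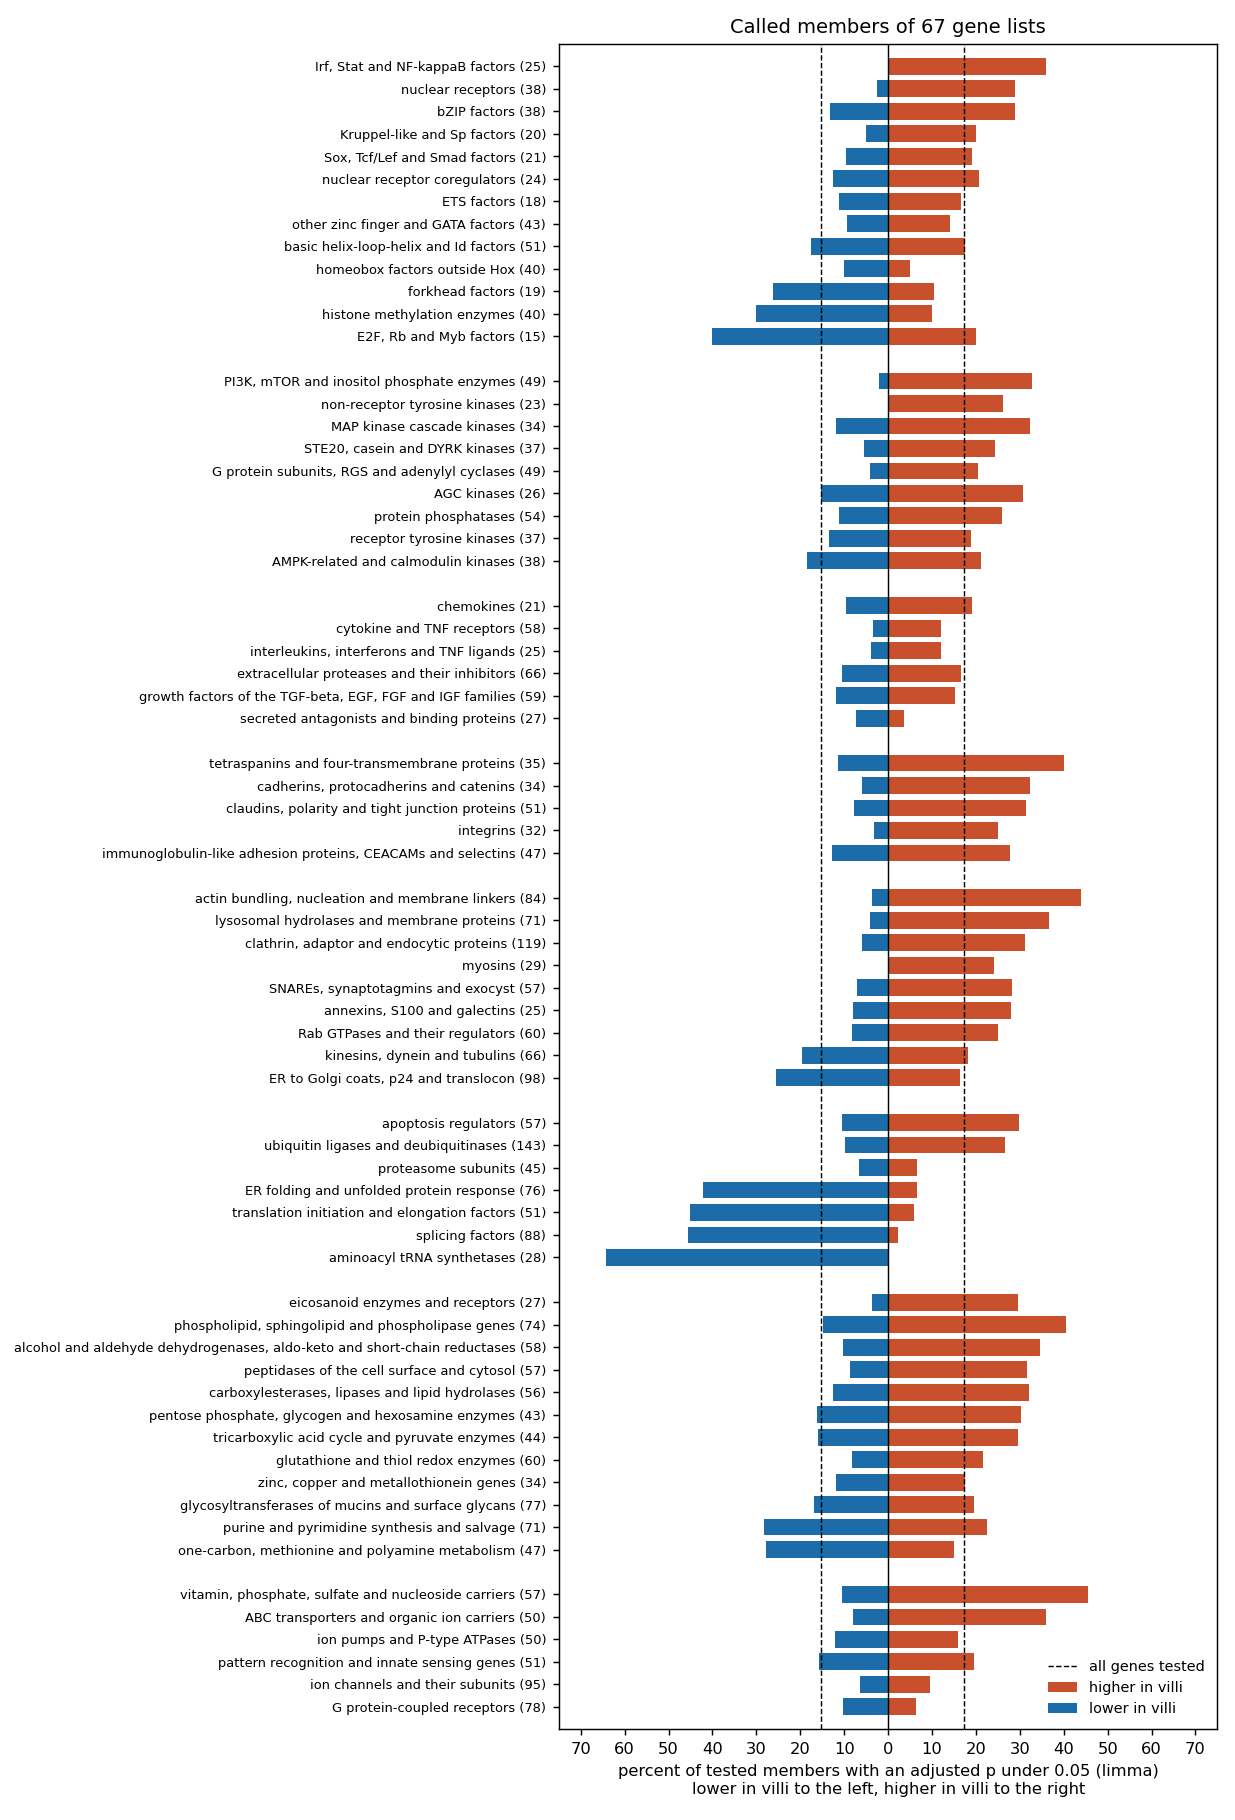
Bars give, for each of 67 gene lists, the percent of tested members called higher in villi (right) and lower in villi (left); the number tested is in brackets, and dashed lines mark 17.2% and 15.2%, the shares over all genes tested. Aminoacyl tRNA synthetases reach farthest to the left, with 18 of 28 lower, and the carriers of vitamins and phosphate farthest to the right, with 26 of 57 higher.

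Among transcription factors, genes of the bZIP family, which bind DNA as dimers through a leucine zipper, changed often (38 tested of 47 listed): 11 rose and 5 fell, with a median of 0.19. Fos stood at 6.91, 6.86 and 7.97 in crypts and at 11.28, 11.94 and 11.16 in villi. Jun, its partner in the AP-1 complex, stood at 6.72, 6.33 and 6.67 in crypts and at 10.33, 11.36 and 9.45 in villi. No crypt array reached the lowest villus array for either gene, and villus V41 was the highest. The differences were 4.21 ± 0.34 for Fos (limma adjusted p = 0.00026) and 3.81 ± 0.43 for Jun (limma adjusted p = 0.00077). Junb (2.75) and Atf3 (2.63), 2 more genes induced early by stimuli and named here after their values were seen, rose too. The Creb3 subfamily, whose proteins are cut from the ER or Golgi membrane to enter the nucleus, moved both ways. Creb3l3, a regulator of lipid genes, stood at 8.27, 8.33 and 7.89 in crypts and at 11.08, 11.46 and 11.31 in villi. Its villus arrays lay within 0.38 of each other, the lowest being 2.75 above the highest crypt array. Creb3l1, a factor of secretory cells, fell (-1.05 ± 0.22), as did Creb3l4 (-2.05 ± 0.22), which was near background in villi. Xbp1, the main factor of the unfolded protein response, had a difference of -0.79 ± 0.17, but 0.04 without probe sets of cross-hybridizing types, -0.45 with the median of probe sets and -1.31 after quantile normalization, so its direction depends on the probe set.

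Max pairs either with Myc, a driver of growth, or with repressors of the Mxd family, and genes of this network changed in both directions. Myc stood at 7.41, 7.65 and 7.24 in crypts and at 5.99, 6.04 and 6.07 in villi, with villus arrays 0.08 apart at most, and fell by 1.40 ± 0.15 (limma adjusted p = 0.0007). Mxi1, which encodes a Mxd repressor, stood at 7.45, 7.81 and 8.19 in crypts and at 9.59, 11.38 and 10.47 in villi. Mxd1, another of them, stood at 6.82, 6.81 and 6.40 in crypts and at 7.82, 9.12 and 9.07 in villi. Both repressor genes had every villus array above every crypt array, villus V12 being the nearest to the crypts. They rose by 2.67 ± 0.42 and 2.0 ± 0.35. Mxd4, a further member, had -0.87 ± 0.28, with a limma adjusted p that rounds to 0.05. That p was 0.13 without crypt K12, 0.17 without crypt K21, 0.1 without villus V41 and 0.086 without villus V275, and the difference was -0.27 with the median of probe sets and -0.25 without cross-hybridizing types. Mxd3 had -0.89 ± 0.31 (limma adjusted p = 0.059; 0.032 without crypt K12, and a difference of -0.53 without crypt K21). Both were named after their values were seen. Max rose by 1.90 ± 0.41, with a limma adjusted p of 0.011 that became 0.051 without crypt K12, and was named after its values were seen. These genes belong to the list of basic helix-loop-helix and Id factors (51 tested of 63 listed). Of that list 9 rose and 9 fell, or 17.6% each, near the shares of 17.2% and 15.2% over all genes. The median was 0.012 (-0.083 to 0.10 with 1 array left out and 0.0067 after quantile normalization). Id3, an inhibitor of these factors, rose by 1.99 ± 0.41. Bhlha15, a factor of secretory cell maturation, stood at 9.10, 9.25 and 9.0 in crypts and at 7.41, 7.45 and 7.41 in villi, with a range of 0.25 in crypts and 0.041 in villi, and Tcf12, a partner of tissue-specific members, differed by -1.75 ± 0.21.

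Among E2F, Rb and Myb factors (15 tested of 25 listed), 6 (3 without crypt K21) fell and 3 rose. Myb, a factor of progenitor cells, stood at 9.29, 9.32 and 9.37 in crypts and at 7.08, 5.67 and 6.33 in villi. The crypt arrays lay within 0.075 of each other while the villus arrays ranged over 1.42, and the difference was -2.96 ± 0.32 (limma adjusted p = 0.0007). Tfdp1, the dimer partner of E2F proteins, differed by -1.33 ± 0.21 and E2f8, a repressive E2F gene, by -0.74 ± 0.14. Rb1, the retinoblastoma gene that holds E2F in check, stood at 6.48, 7.05 and 7.11 in crypts and at 8.44, 9.66 and 8.47 in villi and rose by 1.98 ± 0.35, and its relative Rbl2 rose by 0.78 ± 0.16. Of the histone and DNA methylation enzymes (40 tested of 57 listed), 12 were lower and 4 (1 without crypt K21 or villus V12 or villus V41 and 2 without crypt K41) higher, with a median of -0.17 (-0.31 after quantile normalization). The lysine methyltransferase gene Smyd2 (-2.63 ± 0.30), the arginine methyltransferase gene Prmt1 (-2.53 ± 0.34) and the maintenance DNA methyltransferase gene Dnmt1 (-1.56 ± 0.15) led the falls, and the related gene Prmt2 rose by 1.21 ± 0.21. In the same samples 11 of 12 markers of dividing cells were lower in villi, the log2 of their summed signal being 12.33 to 12.66 in crypts and 10.62 to 10.99 in villi, and their part in these results was not tested.

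Factors known from immune signalling changed in 1 direction. Of the Irf, Stat and NF-kappaB genes (25 tested of 31 listed), 9 (5 without crypt K12 or crypt K21 and 5 after quantile normalization) rose and 0 fell in limma, with a median of 0.44 (0.23 after quantile normalization). At an unadjusted p under 0.05, 12 were higher and 0 lower, beside 42.6% of all genes tested in either direction. Irf7, a factor of the interferon response, stood at 7.44, 7.94 and 7.85 in crypts and at 10.02, 11.49 and 10.74 in villi and rose by 3.01 ± 0.35. Relb, of the alternative NF-kappaB pathway, stood at 7.49, 7.48 and 7.41 in crypts and at 9.44, 10.33 and 9.77 in villi. The crypt arrays of Relb lay within 0.08 of each other, and its rise was 2.39 ± 0.22 (limma adjusted p = 0.00042). Other families changed in both directions. Of 20 Kruppel-like and Sp genes, 4 rose, among them Klf4 (2.80 ± 0.15), a gene of differentiated epithelium, and Klf6 (2.04 ± 0.31), and Klf15 fell to near background (-1.68 ± 0.19). Of 21 Sox, Tcf/Lef and Smad genes 4 rose and 2 fell. The inhibitory Smad genes Smad7 (2.21 ± 0.21) and Smad6 (1.78 ± 0.19), which dampen TGF-beta and BMP signals, rose, and Sox9, a progenitor and Paneth cell factor, fell (-1.83 ± 0.26). Of 38 nuclear receptor genes 11 (6 without crypt K12 or villus V275, 4 without crypt K21 and 7 without villus V12) rose and 1 fell. Of 19 forkhead genes 2 rose and 5 fell (10.5% and 26.3%), with Foxa3 (-1.43 ± 0.18) the largest fall. Those falls were 1 without crypt K12 or crypt K21, 3 without villus V12 or villus V41 and 2 without villus V275. Of 40 homeobox genes outside Hox 2 rose and 4 (2 without crypt K12 or crypt K21) fell, or 5% and 10%. Hopx (-1.51 ± 0.23) was among these falls. Of 43 other zinc finger and GATA genes 6 rose and 4 fell. The latter were 1 without crypt K12 or crypt K21 and 2 without villus V41 or villus V275. Gata5 (1.32 ± 0.20) rose and Bcl11b (-2.15 ± 0.30) fell.

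**Figure D3:**
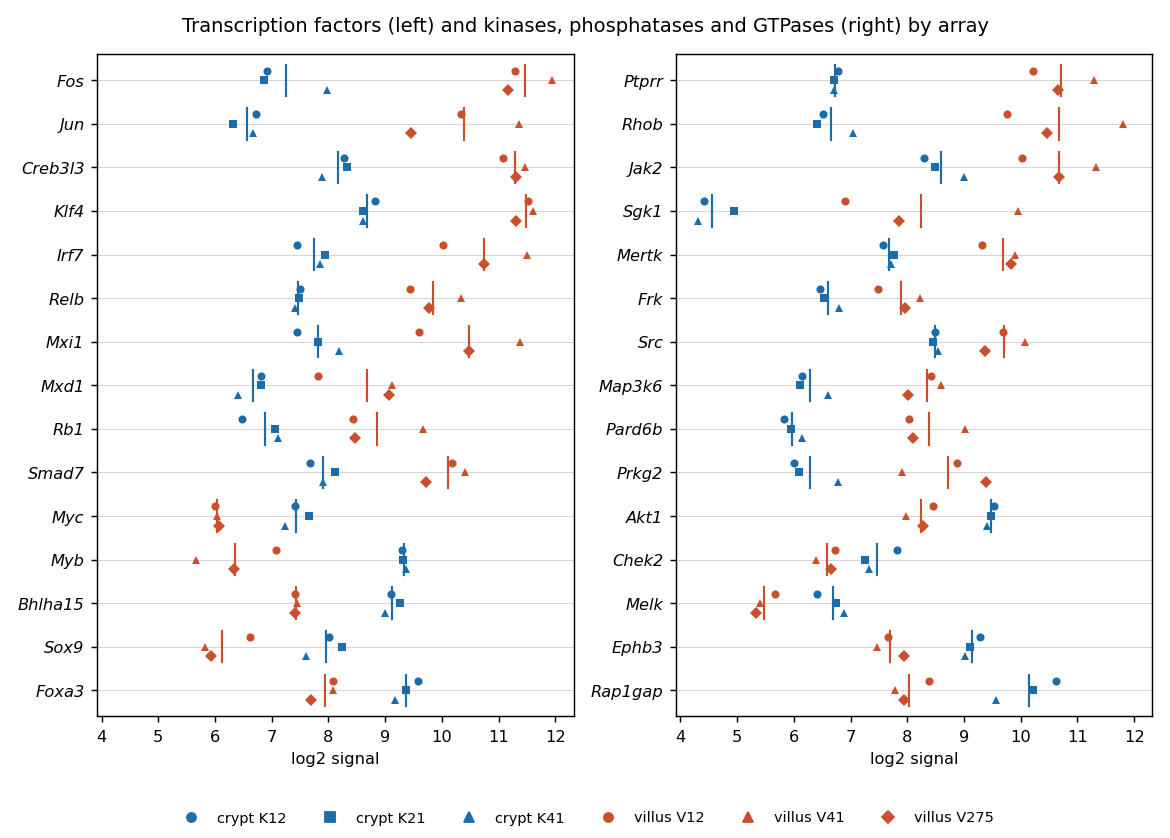
Log2 signals of 15 transcription factor genes (left) and 15 kinase, phosphatase and GTPase genes or their partners (right) in each of the 6 arrays; blue symbols are crypt and red symbols villus arrays, shifted vertically by array, and vertical lines are group means. Fos lies between 6.86 and 7.97 in crypts and between 11.16 and 11.94 in villi, and Myc between 7.24 and 7.65 in crypts and between 5.99 and 6.07 in villi.

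In several kinase families more genes rose than fell. Of the MAP kinase cascade genes (34 tested of 53 listed), 11 rose and 4 (1 without crypt K12 or crypt K21 and 2 without villus V41 or villus V275) fell, with a median of 0.18 (0.12 without villus V41), and of the AGC kinases, the family of Akt and protein kinases A and C (26 tested of 41 listed), 8 rose and 4 (2 without crypt K12 or crypt K21) fell. Sgk1, a kinase gene that acts on epithelial sodium transport, stood at 4.42, 4.95 and 4.30 in crypts and at 6.90, 9.96 and 7.85 in villi. Its crypt values were near background, and villus V41 was well above the other villus arrays. It rose by 3.68 ± 0.68, and its relative Sgk2 by 2.99 ± 0.65. Prkg2, the kinase of the guanylin pathway for chloride secretion, rose by 2.43 ± 0.38. Akt1, a central growth and survival kinase gene, stood at 9.54, 9.48 and 9.40 in crypts and at 8.46, 7.98 and 8.28 in villi and fell with a difference of -1.24 ± 0.16 (limma adjusted p = 0.0014). Along the MAP kinase cascade Map3k6 (2.05 ± 0.21) and Map2k4 (1.45 ± 0.28), upstream of the stress kinases, rose and Map2k6 (-0.99 ± 0.18), upstream of p38, fell. Of 23 non-receptor tyrosine kinase genes 6 (3 without crypt K12 or crypt K21) were higher and 0 lower in limma, or 8 and 0 at an unadjusted p under 0.05. They included Jak2 (2.08 ± 0.34), which relays cytokine receptors, the epithelial kinase gene Frk (1.30 ± 0.21) and Src (1.21 ± 0.19). Of 37 receptor tyrosine kinase genes 7 were higher and 5 (3 without crypt K12 or crypt K21 or villus V41 and 2 without villus V275) lower. Mertk, a receptor for the uptake of dying cells, stood at 7.58, 7.77 and 7.71 in crypts and at 9.31, 9.89 and 9.84 in villi, while Ephb3, which sorts crypt cells, differed by -1.45 ± 0.17. The checkpoint kinase gene Chek2 (-0.88 ± 0.19) and Melk (-1.22 ± 0.17, near background in villi), a kinase gene of dividing cells, fell.

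Phosphatases and small GTPases changed along with the kinases. Of 54 protein phosphatase genes (75 listed), 14 rose and 6 fell. Ptprr, a tyrosine phosphatase gene that acts on MAP kinases, stood at 6.77, 6.71 and 6.7 in crypts and at 10.22, 11.28 and 10.65 in villi. The crypt arrays lay within 0.07 of each other and at least 3.45 below every villus array, and the difference was 3.99 ± 0.26 (limma adjusted p = 0.00011). Ptpre rose by 3.15 ± 0.58 and Dusp1, a MAP kinase phosphatase gene near background in crypts, by 2.92 ± 0.30. Ptpn18 (-1.15 ± 0.20) and Ppm1g (-1.01 ± 0.21) fell. Rhob, a GTPase gene of endosomes and actin, stood at 6.51, 6.40 and 7.04 in crypts and at 9.76, 11.80 and 10.47 in villi. All villus arrays exceeded all crypt arrays by at least 2.72, and the rise was 4.03 ± 0.47. Rhoc (2.45 ± 0.37) and Rhou (2.25 ± 0.25) rose with it. Rap1gap, which turns off Rap1, fell (-2.11 ± 0.29), as did Racgap1, a gene of cell cleavage (-1.29 ± 0.17), and Rasa3 (-1.0 ± 0.16). Of 49 PI3K, mTOR and inositol phosphate genes 16 (10 without crypt K12 or villus V275 and 8 without crypt K21) rose and 1 fell, among them the inositol phosphatase gene Inpp5a (1.28 ± 0.20). The G protein subunit genes Gnb1 (1.87 ± 0.26) and Gng12 (2.06 ± 0.37) were higher in villi.

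Secreted factors changed in both directions. The list of secreted antagonists and binding proteins (27 tested of 53 listed) had 1 rise and 2 falls, beside shares of 17.2% and 15.2% over all genes. Of the growth factor genes of the TGF-beta, EGF, FGF and IGF families (59 tested of 94 listed), 9 were higher and 7 (3 without crypt K21) lower. Hbegf, a membrane-anchored EGF receptor ligand, stood at 6.96, 7.34 and 7.24 in crypts and at 9.58, 11.05 and 8.59 in villi, villus V41 again being the highest, and rose by 2.56 ± 0.54. Bmp8a rose from near background by 2.88 ± 0.61, and Bmp2, a ligand made by differentiated epithelium, by 2.31 ± 0.34. Vegfb (-1.21 ± 0.20) and Hdgf (-1.28 ± 0.19), a growth factor of the nucleus and the cell exterior, fell. Of 66 extracellular protease and inhibitor genes 11 (7 without crypt K21 or villus V41) were higher and 7 (4 without crypt K12 or crypt K21) lower. The protease inhibitor genes Spink1 (4.17 ± 0.55) and Cst6 (3.03 ± 0.29) and the serine protease gene Prss30 (3.38 ± 0.39) rose. Mmp7, which activates Paneth cell defensins, fell (-4.24 ± 0.24), as did the inhibitor gene Spink4 (-1.81 ± 0.18) and the serine protease gene Tmprss2 (-2.04 ± 0.31).

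Cytokines and chemokines were measured in tissue in which lymphocyte genes also moved. Of the interleukin, interferon and TNF ligand genes (25 tested of 62 listed), 3 rose and 1 fell. Of 21 chemokine genes 4 (2 without crypt K12 or crypt K21 or villus V275 and 2 after quantile normalization) rose and 2 fell, and of 58 cytokine and TNF receptor genes 7 (2 without crypt K12, 3 without crypt K21 and 4 without villus V275) rose and 2 fell. Ccl5, a T cell attractant, stood at 7.63, 7.41 and 7.13 in crypts and at 10.29, 10.95 and 11.66 in villi and rose by 3.58 ± 0.33, and Il15, which maintains intraepithelial lymphocytes, rose from near background by 1.94 ± 0.21. Ccl9 stood at 9.93, 10.40 and 10.61 in crypts and at 7.02, 6.48 and 6.63 in villi, and its relative Ccl6 had a difference of -2.53 ± 0.23. The Ccl9 arrays of the groups were separated by 2.90, with a difference of -3.60 ± 0.22 (limma adjusted p = 9.5e-05). Mif, a cytokine gene active in many cell types, fell (-2.0 ± 0.22). Of receptors, Ifngr2 for interferon gamma rose by 1.80 ± 0.24 and Ghr, the growth hormone receptor gene, fell (-1.70 ± 0.28). In the same arrays 13 of 18 tested markers of T cells and intraepithelial lymphocytes were higher in villi and 0 lower in limma, or 14 and 0 at an unadjusted p under 0.05. The log2 of their summed signal was 11.14 to 11.44 in crypts and 12.65 to 13.74 in villi, and 1 of the 20 on the array was at or under the 30th percentile in all 6 arrays. The part of these cells in the cytokine, chemokine and immune factor results was not tested.

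Adhesion and surface genes were more often higher than lower in villi. Of the tetraspanins and other proteins with 4 membrane spans (35 tested of 54 listed), 14 rose and 4 (2 without crypt K12 or crypt K21 or villus V12) fell, with a median of 0.34. Pmp22, known from myelin and also a junction protein of epithelia, stood at 5.31, 6.06 and 6.44 in crypts and at 11.82, 12.83 and 12.19 in villi, and rose by 6.34 ± 0.34. Its relative Emp1, near background in crypts, rose by 4.17 ± 0.49. Cd9, a tetraspanin gene, stood at 9.27, 9.32 and 9.34 in crypts and at 7.57, 6.98 and 7.02 in villi, in the opposite order, with a difference of -2.12 ± 0.18 (limma adjusted p = 0.00033). Of 51 claudin, polarity and tight junction genes 16 (10 without crypt K12 and 9 without crypt K21) were higher and 4 lower. The barrier-forming claudin gene Cldn4 (2.57 ± 0.50) and the polarity gene Pard6b (2.41 ± 0.27) rose, and the pore-forming Cldn2 (-2.55 ± 0.33) and the gap junction gene Gjb2 (-1.52 ± 0.18) fell. Of 34 cadherin, protocadherin and catenin genes 11 (7 without crypt K21) rose and 2 fell. Cdhr5, which links microvilli, rose by 1.95 ± 0.14, the desmosome plaque gene Pkp1 had a difference of -1.16 ± 0.24, and Celsr1 of planar cell polarity had -1.68 ± 0.15 and was near background in villi. Of 47 immunoglobulin-like, CEACAM and selectin genes 13 were higher and 6 (3 without crypt K21) lower. Igsf9 (2.89 ± 0.48) and Ceacam1 (2.03 ± 0.27) rose while Ceacam10 fell (-2.68 ± 0.34). Of 32 integrin and focal adhesion genes 8 (5 without crypt K21) rose, including Itgae of intraepithelial lymphocytes (1.80 ± 0.34) and the adaptor gene Bcar1 (1.89 ± 0.30).

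Many genes of the apical membrane machinery rose. Of the actin bundling, nucleation and membrane linker genes (84 tested of 112 listed), 37 (24 without crypt K12 and 23 without crypt K21) rose and 3 fell, with a median of 0.60. Pdzk1, a scaffold gene of brush border carriers, stood at 6.38, 6.58 and 6.37 in crypts and at 11.11, 10.85 and 11.42 in villi. The crypts spanned 0.21 and the villi 0.57, and the difference was 4.68 ± 0.18 (limma adjusted p = 1.3e-05). Espn (3.19 ± 0.32), which bundles actin in microvilli, and the severing gene Gsn (2.89 ± 0.36) rose. Of 29 myosin genes 7 rose and 0 fell in limma, with 0 lower at an unadjusted p under 0.05, among them Myo7b (2.05 ± 0.15) of microvillus tips and Myo5b (2.04 ± 0.21), a motor of recycling endosomes. Among the endocytic genes (119 tested of 136 listed), 37 (22 without crypt K12 and 19 without crypt K21) rose and 7 (4 without crypt K12 or crypt K21 or villus V41 and 3 without villus V275) fell. Cubn, the receptor of intrinsic factor with vitamin B12, stood at 5.79, 6.52 and 5.76 in crypts and at 11.82, 11.24 and 11.96 in villi. Amn, the protein that carries it to the surface, stood at 7.46, 8.37 and 9.10 in crypts and at 11.50, 11.87 and 12.17 in villi. Both were separated in all arrays, and rose by 5.65 ± 0.27 and 3.54 ± 0.39. The transferrin receptor gene Tfrc, for iron uptake by dividing cells, moved the other way (-1.79 ± 0.35). The apical fusion gene Stx3 (1.48 ± 0.20) and the endosomal Stx12 (1.44 ± 0.29) rose among 57 SNARE and exocyst genes, of which 16 (9 without crypt K21) rose and 4 (2 without crypt K12 or crypt K21) fell. Of 60 Rab genes and regulators 15 (8 without crypt K21) rose and 5 (3 without crypt K21, 9 without villus V12 and 9 after quantile normalization) fell. Rab3d of secretory granules (-1.71 ± 0.21) and Rab15 (-1.40 ± 0.21) were among the falls. Of 71 lysosomal genes 26 (17 without crypt K12 and 16 without crypt K21) rose and 3 fell, or 20 and 8 after quantile normalization. The rises included Npc1 of cholesterol export (2.48 ± 0.53), near background in crypts, and the protease gene Ctss (2.25 ± 0.49), while Gusb (-1.29 ± 0.16) fell.

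Genes of traffic between the ER and the Golgi changed in both directions. Of 98 genes of coats, p24 cargo receptors and the translocon (118 listed), 16 (6 without crypt K12 or crypt K21, 10 without villus V275 and 5 after quantile normalization) rose and 25 fell, with a median of -0.012 (-0.067 to 0.008 with 1 array left out and -0.28 after quantile normalization). The falls numbered 21 to 26 with any array left out and 35 after quantile normalization, so the balance of rises and falls depends on the scaling. Sec23a, a subunit of the COPII coat that carries cargo out of the ER, stood at 6.18, 6.46 and 8.03 in crypts and at 9.42, 10.06 and 10.04 in villi, with crypt K41 above the other crypts, and rose by 2.95 ± 0.46. Sec16b (1.86 ± 0.18), which marks ER exit sites, and Sar1b (1.82 ± 0.40), the COPII GTPase needed for chylomicron export, rose too. Tmed6, a p24 receptor gene, stood at 10.07, 9.69 and 9.80 in crypts and at 5.28, 4.51 and 4.42 in villi. Its villus values were near background, and its difference of -5.11 ± 0.25 (limma adjusted p = 3.4e-05) was among the largest falls. Tmed3, of the same family, had -1.24 ± 0.20 and the translocon gene Sec61b had -0.96 ± 0.22, both named after their values were seen. The signal peptidase gene Spcs3 (-1.80 ± 0.15) fell as well.

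Lists of genes that make and fold proteins had more falls than the 15.2% over all genes. Of the aminoacyl tRNA synthetases and their partners, which load tRNAs with amino acids (28 tested of 38 listed), 18 fell and 0 rose in limma, with a median of -0.78 and 1 higher at an unadjusted p under 0.05, and 15 to 20 fell with any array left out. Vars, the valine enzyme gene, stood at 9.84, 9.65 and 9.94 in crypts and at 7.61, 6.99 and 7.53 in villi and differed by -2.43 ± 0.20 (limma adjusted p = 0.00026). Kars, the lysine enzyme gene, named after its values were seen, had -0.92 ± 0.20. The highest villus array of each lay below its lowest crypt array. Of 51 translation factor genes 23 (15 without crypt K21, 14 without crypt K41 and 35 after quantile normalization) fell and 3 rose, with a median of -0.56 (-0.91 after quantile normalization). Eef1b2, an elongation factor gene, had -1.80 ± 0.29. Of 88 splicing factor genes 40 fell and 2 rose, with a median of -0.62, and 27 to 45 fell with any array left out. Esrp2, an epithelial splicing regulator, had -1.92 ± 0.23, or -0.89 as the median over its probe sets. Of the genes of ER folding and the unfolded protein response (76 tested of 84 listed), 32 fell and 5 (2 without crypt K21, 3 without crypt K41 and 2 after quantile normalization) rose, with a median of -0.56, and 25 to 28 fell with any array left out. Ern2, the stress sensor of mucus-secreting cells, stood at 9.72, 9.76 and 8.86 in crypts and at 7.81, 6.45 and 6.87 in villi and had -2.40 ± 0.38, and Mogs, the first glucosidase of glycan trimming, had -1.76 ± 0.30. After quantile normalization the falls were 22 for tRNA synthetases, 53 for splicing factors and 43 for ER folding.

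Those falls came with other differences in the same arrays. Markers of dividing cells were lower, as given above. Of Paneth cell markers, 6 of 6 were lower, with summed log2 signals of 15.6 to 15.74 in crypts and 11.16 to 13.57 in villi. Of goblet cell markers, 4 of 8 were higher and 4 lower, with summed log2 signals of 15.03 to 15.25 in crypts and 15.4 to 15.69 in villi. The part of these cells in the protein synthesis and folding results was not tested. For the proteasome the counts were small: of 45 subunit and assembly genes 3 fell and 3 rose. The rises were 9 without crypt K41, 0 without crypt K12 or crypt K21 and 1 without villus V12, villus V41 or villus V275, and quantile normalization gave 1 rise and 8 falls. The assembly chaperone genes Psmg1 (-1.27 ± 0.24) and Psmg2 (-1.45 ± 0.20, near background in villi) were among the falls. Of 143 ubiquitin ligase and deubiquitinase genes 38 (25 without crypt K12 and 21 without crypt K21) rose and 14 (7 without crypt K12 or crypt K21 and 9 without villus V275) fell. Trim15 rose from near background by 3.56 ± 0.44, Fbxo6 by 1.85 ± 0.27, and the corepressor gene Trim28 had -1.65 ± 0.26. Of 57 apoptosis regulators 17 rose and 6 fell. Pmaip1, which encodes the death-promoting protein Noxa, stood at 5.01, 4.86 and 5.21 in crypts and at 7.95, 9.12 and 8.26 in villi, near background in crypts, and rose by 3.41 ± 0.29. Cideb, of lipid particle assembly as well as cell death, rose by 2.70 ± 0.24. Birc5 (-2.30 ± 0.21), the survivin gene of dividing cells, and Siva1 (-1.09 ± 0.13) fell.

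**Figure D4:**
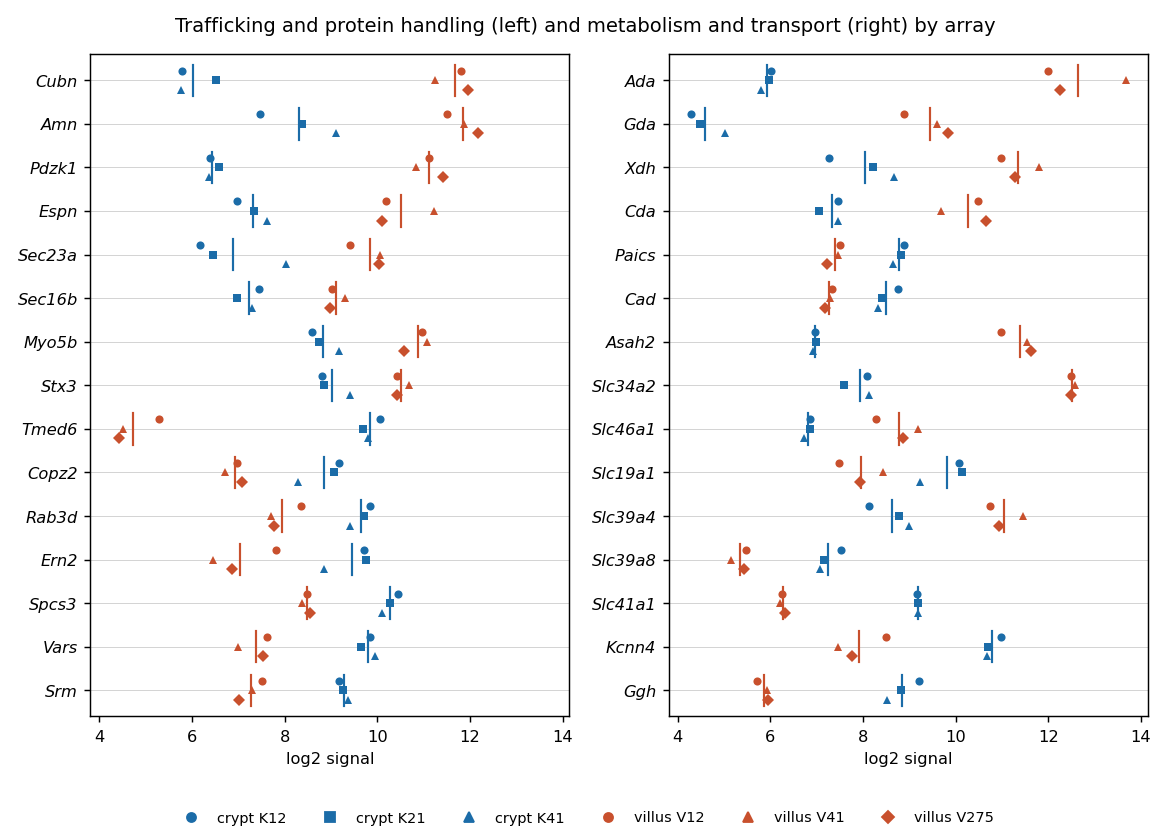
Log2 signals of 15 trafficking and protein handling genes (left) and 15 metabolism and transport genes (right) in each of the 6 arrays; blue symbols are crypt and red symbols villus arrays, shifted vertically by array, and vertical lines are group means. Cubn lies between 5.76 and 6.52 in crypts and between 11.24 and 11.96 in villi, and Tmed6 between 9.69 and 10.07 in crypts and between 4.42 and 5.28 in villi.

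Purine and pyrimidine genes changed in both directions, and breakdown and synthesis were not counted apart. Of 71 purine and pyrimidine genes (94 listed), 16 rose and 20 (13 without crypt K21) fell. Gda, guanine deaminase, stood at 4.28, 4.47 and 5.01 in crypts and at 8.88, 9.60 and 9.83 in villi, and rose by 4.85 ± 0.29 from near background. Xdh, the last step to uric acid, stood at 7.27, 8.21 and 8.66 in crypts and at 10.98, 11.81 and 11.27 in villi and rose by 3.30 ± 0.37. Cda, cytidine deaminase, rose by 2.95 ± 0.27. These 3 breakdown genes had all villus arrays above all crypt arrays. Ampd2, an AMP deaminase gene, fell (-1.79 ± 0.20, or -0.97 without cross-hybridizing types). Gart, which encodes 3 steps of purine synthesis, stood at 8.67, 8.55 and 8.65 in crypts and at 6.77, 6.43 and 6.43 in villi and had -2.08 ± 0.15, or -0.83 as the median over its probe sets. Paics, which follows it in the pathway, had -1.38 ± 0.15, and Cad, the start of pyrimidine synthesis, had -1.23 ± 0.16. Dtymk, which makes thymidine diphosphate, had -1.81 ± 0.16 and was near background in villi. Xdh, Cda, Paics and Cad were named after their values were seen.

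One-carbon and polyamine genes fell more often than they rose. Of 47 genes 13 fell and 7 (4 without crypt K12 or crypt K21) rose. Folate genes changed in both directions. Slc46a1, the proton-coupled folate carrier of intestinal uptake, stood at 6.85, 6.84 and 6.72 in crypts and at 8.28, 9.19 and 8.86 in villi and rose by 1.97 ± 0.23. Slc19a1, the reduced folate carrier, stood at 10.07, 10.13 and 9.23 in crypts and at 7.49, 8.43 and 7.92 in villi and had -1.86 ± 0.31. Ggh, which trims folate side chains, had -2.99 ± 0.20 (limma adjusted p = 0.00013). The arrays of the groups did not overlap for any of these 3 genes, so 1 carrier gene was higher in villi and the other lower. Srm, spermidine synthase, had -2.0 ± 0.16. Gclm, a subunit of the enzyme that starts glutathione synthesis, rose by 1.97 ± 0.14, and of 60 glutathione and thiol redox genes 13 rose and 5 (2 without crypt K21 and 9 after quantile normalization) fell. Dpep1 (3.77 ± 0.33) and Anpep (3.27 ± 0.39), surface peptidase genes, and Srxn1 (2.78 ± 0.35), which repairs oxidised peroxiredoxin, had the largest rises of that list.

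Lipid and carbon enzymes changed in both directions. Of the phospholipid, sphingolipid and phospholipase genes (74 tested of 106 listed), 30 rose and 11 (7 without crypt K21) fell, with a median of 0.34. Asah2, the neutral ceramidase of the brush border, stood at 6.96, 6.99 and 6.92 in crypts and at 10.97, 11.53 and 11.63 in villi, the crypt arrays lying within 0.065 of each other, and rose by 4.42 ± 0.19 (limma adjusted p = 2e-05). Smpdl3b rose by 3.50 ± 0.49, whereas the secreted phospholipase gene Pla2g2f had -2.43 ± 0.19. Of 56 carboxylesterase, lipase and lipid hydrolase genes 18 rose and 7 fell, from Ces2a (3.88 ± 0.56), an esterase gene of drug and lipid metabolism, to Pnliprp2 (-4.18 ± 0.42), a lipase gene better known from the pancreas. Of the pancreas, 1 of 8 tested acinar cell markers was lower and 0 were higher in limma, and the counts were the same at an unadjusted p under 0.05. Of 44 tricarboxylic acid cycle and pyruvate genes 13 rose and 7 fell. The alanine aminotransferase genes moved in opposite directions, Gpt of the cytosol by 2.65 ± 0.20 and Gpt2 of the mitochondrion by -2.18 ± 0.42, the latter near background in villi. Ogdh of the cycle rose by 1.82 ± 0.23 and Acly, which makes acetyl-CoA for lipid synthesis, had -1.39 ± 0.13. Of 43 pentose phosphate, glycogen and hexosamine genes 13 rose and 7 (4 without crypt K12 or crypt K21) fell. Of the sialic acid genes, Npl of breakdown rose by 2.80 ± 0.22 and Nans of synthesis had -1.10 ± 0.20. Ephx2, an epoxide hydrolase gene of fatty acid signals, rose by 3.87 ± 0.19, and Ptger4, a prostaglandin receptor gene, by 2.64 ± 0.46, among 8 rises and 1 fall of 27 eicosanoid genes. Of 58 alcohol, aldehyde and short-chain dehydrogenase genes 20 (12 without crypt K12 or villus V275 and 13 without crypt K21 or crypt K41) rose and 6 (3 without crypt K21) fell. Hsd17b2, which inactivates sex steroids, rose by 2.79 ± 0.32.

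Carriers were among the lists with most rises. Of the vitamin, phosphate, sulfate and nucleoside carriers (57 tested of 73 listed), 26 rose and 6 (2 without crypt K12 or crypt K21 and 3 without villus V275) fell, with a median of 0.21 (0.34 without crypt K12 and 0.32 without villus V275). Slc34a2, the phosphate carrier of the brush border, stood at 8.08, 7.59 and 8.14 in crypts and at 12.48, 12.58 and 12.49 in villi. The villus arrays lay within 0.1 of each other, and the rise was 4.58 ± 0.18 (limma adjusted p = 1.3e-05). Slc41a1, a magnesium transporter gene, stood at 9.17, 9.19 and 9.18 in crypts and at 6.26, 6.21 and 6.32 in villi. Its groups were as tight, with a difference of -2.92 ± 0.12 (limma adjusted p = 2e-05). Zinc carriers were divided: Slc39a4, which takes up zinc from the gut lumen, rose by 2.41 ± 0.27, while Slc39a8 (-1.90 ± 0.17, near background in villi), Slc39a11 (-1.05 ± 0.14) and the ER and Golgi carrier gene Slc39a7 (-1.01 ± 0.17) fell. The copper carrier gene Slc31a1 rose by 1.65 ± 0.16 and Heph, an oxidase gene for iron export, by 3.76 ± 0.49. Of 50 ABC transporter and organic ion carrier genes 18 rose and 4 fell. The drug efflux gene Abcg2 (3.27 ± 0.27) and Slc47a1 (2.95 ± 0.34, near background in crypts) rose and Abcc1 (-1.23 ± 0.17, near background in villi) fell.

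Channel and G protein-coupled receptor genes changed in both directions, but less often than all genes tested. Of 95 ion channel genes 9 rose (9.47%) and 6 fell (6.32%), beside shares of 17.2% and 15.2% over all genes. Kcnn4, a calcium-activated potassium channel gene of secreting cells, stood at 10.97, 10.71 and 10.67 in crypts and at 8.49, 7.45 and 7.77 in villi and had -2.88 ± 0.26 (limma adjusted p = 0.00039). Kcne3, a channel subunit gene of chloride secretion, had -3.36 ± 0.45 and was near background in villi. Fxyd3, a sodium pump regulator, had -2.09 ± 0.15. Kcnk5, another potassium channel gene, rose by 2.15 ± 0.40 and the chloride channel gene Clcn2 by 2.07 ± 0.21, so potassium channel genes were found on both sides. Of 78 G protein-coupled receptor genes and partners (161 listed), 5 (2 without crypt K12, 1 without crypt K21 and 3 without villus V12) rose and 8 fell. These were 6.41% and 10.3%, again under the shares over all genes. Lpar1, a receptor for lysophosphatidic acid, rose by 1.34 ± 0.20, and Ramp1, which shapes the receptor of a neuropeptide, had -2.51 ± 0.27. Of 51 innate sensing genes 10 rose and 8 (5 without crypt K21 or villus V275) fell, or 19.6% and 15.7%, near those shares. The RNA sensor gene Ifih1 (2.14 ± 0.23) and Naip5 (2.18 ± 0.25), which senses flagellin, rose, and the bactericidal Pglyrp1 (-1.71 ± 0.27) fell.

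Related genes were also compared as pairs. Of 115 pairs, both genes were tested in 87, and both were called in 32: 23 in the same direction and 9 in opposite directions. The secreted phospholipase genes were farthest apart. Pla2g2a, from the Paneth cell marker list used here, stood at 11.80, 11.59 and 11.20 in crypts and at 7.22, 6.52 and 6.85 in villi. Pla2g12b, of lipoprotein assembly, stood at 6.97, 6.87 and 8.04 in crypts and at 10.05, 10.76 and 10.67 in villi. They had -4.67 ± 0.23 and 3.20 ± 0.34. Car8, a carbonic anhydrase relative without enzyme activity, had -4.41 ± 0.33 (near background in villi, and -1.57 on its other probe set), and Car13 rose by 1.97 ± 0.39. The subunit genes of the COPI coat moved apart, Copz1 by 0.93 ± 0.19 (0.59 after quantile normalization) and Copz2 by -1.92 ± 0.25. Those 3 pairs kept both calls with any array left out and in the other processing settings, apart from the fit with the replicate number as a block. Atp1b1 and Atp1b3, subunits of the sodium pump, had 0.95 ± 0.20 and -1.18 ± 0.14 and kept both calls with any array left out, but Atp1b1 was at 0.50 after quantile normalization (limma adjusted p = 0.051) and at 0.10 without cross-hybridizing types. In the other 5 pairs a call was lost when an array was left out, and the limma adjusted p then given is for that fit. Aldh1b1, the partner of Aldh1a1, was at 0.056 without crypt K21. Pim3, the partner of Pim1, was at 0.058 without crypt K12 and 0.069 without crypt K21. Tubb2a, the partner of Tubb5, was at 0.07, 0.082 and 0.054 without crypt K12, crypt K21 and crypt K41. Slc12a7, the partner of Slc12a2, was at 0.052, 0.069 and 0.061 without crypt K12, crypt K21 and villus V275. Ezh1 lost its call without crypt K21, crypt K41, villus V12 or villus V41 (0.061 to 0.1) and Ezh2 without any of these or villus V275 (0.099 to 0.17).

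**Figure D5:**
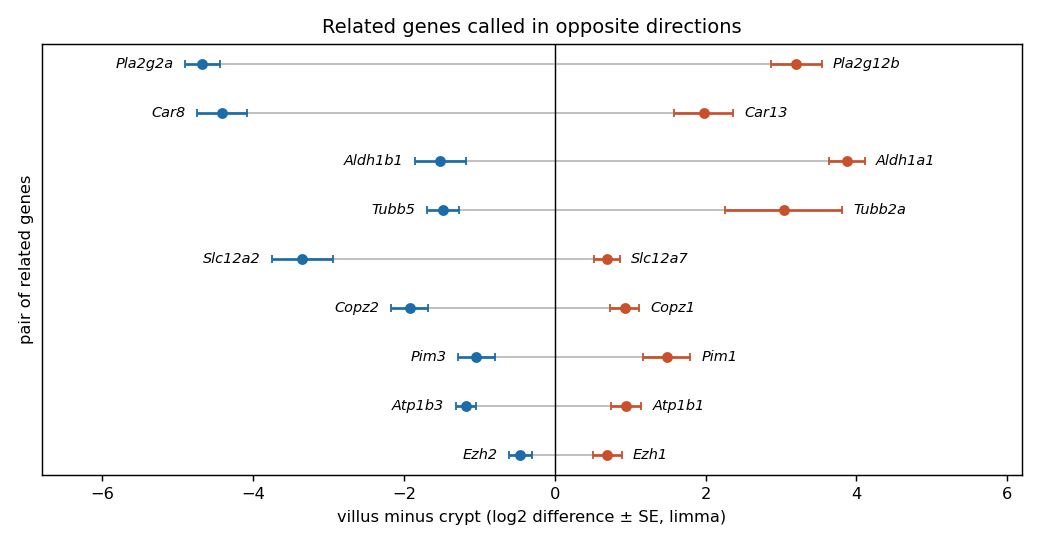
Villus minus crypt log2 differences ± SE for the 9 pairs of related genes called in opposite directions, with the gene that is higher in villi in red and the one that is lower in blue, joined by a line. Pla2g2a and Pla2g12b lie farthest apart, at -4.67 and 3.20, and Ezh2 and Ezh1 nearest.

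Markers of other cell types were read in the same arrays. The defining genes of both labelled tissues had the labels' direction: 16 of 16 tested enterocyte markers were higher in villi, and 5 of 9 crypt base stem cell markers were lower and 0 higher in limma. At an unadjusted p under 0.05, 6 of the stem cell markers were lower and 0 higher. Enterocyte markers were not absent from crypts, where the log2 of their summed signal was 12.14 to 13.73, highest in crypt K41, which was also the highest crypt array for 62.9% of the genes called higher. The part of enterocytes in crypt K41 in the results was not tested. Of markers of smooth muscle (8 tested), endothelium (8), enteric neurons and glia (6), red cells (2) and tuft cells (3), 0 passed the limma test. At an unadjusted p under 0.05, 2 smooth muscle and 2 endothelial markers did, and 0 of the others. Of fibroblast markers 3 of 12 were higher, of B cell and plasma cell markers 2 of 9 were lower, and of myeloid markers 1 of 11 was higher and 2 lower. Of enteroendocrine markers 5 of 14 were higher and 1 was lower.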

How the data were processed

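RNA of 3 crypt and 3 villus samples was measured on 1-colour Affymetrix-type arrays with 22690 probe sets. The deposited table holds log2 values of RMA, a background correction, quantile scaling and probe summary, per the submitters' processing notes; its settings are not stated in any source used. Tests were kept within the table of 8 arrays, since other arrays of the series were scaled apart from it, and of its arrays the 2 embryonic ones were not tested. Probe sets took their gene from the platform annotation: 20393 had 1 symbol, 691 several (left out) and 64 were controls. The probe set with the highest mean stood for a gene. Genes above the table's 30th percentile in at least 3 of 6 arrays were fitted with limma 3.58.1 (lmFit, eBayes, R 4.3.3), with Benjamini-Hochberg adjustment over 9806 genes and a threshold of 0.05. The fit was tested on simulated data with 100 genes changed by 2-fold and 100 by 4-fold. It called 72% of the former and 99% of the latter, and 6.56% of its calls were false. The number of arrays limits the precision. The members and gene lists were chosen with earlier results of these data known.

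Named genes were the 40 largest rises and falls without overlap, the 15 largest moderated t values each way, the 3 largest rises and falls of each list, opposite related pairs and the leading markers. Where a gene falls outside this rule, the text says so. Alternatives were quantile normalization, median centring, other filters, the median of a gene's probe sets, no cross-hybridizing types, another prior, all 8 arrays in 1 fit, the replicate number as a block and leaving out each array. A count of a list that moved by over 1.5 times is given with the value that moved it where the main count is at least 4. Array numbers 12 and 41 occur in both groups, but the labels do not say that they mark 1 mouse. Some items are not reported here.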

Additional observations from a re-analysis of the deposited data

How the results depend on the processing

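The 4 counts of calls kept within 1.5 times under quantile normalization, median centring, other filters, the median of probe sets, no cross-hybridizing types, another prior and the fit of 8 arrays. With 1 array left out, 1052 to 1598 genes were higher and 922 to 1530 lower, or 851 to 1124 and 565 to 848 at 2-fold, the lowest of the former without crypt K21. A test of each probe set gave 1107 at least 2-fold lower, of 14640 tested. A test against a 2-fold change, treat, called 254 higher and 123 lower. With the replicate number as a block, 806 were higher and 405 lower, and 405 were 2-fold lower. Crypt K21 and villus V275 share no number, so that fit is by design the same as one of arrays 12 and 41 alone. The parts of pairing and of fewer arrays in its counts cannot be told apart. Only 2 numbers are shared, and the deviations of same-numbered arrays correlated at 0.161 and 0.0689. Of 456 genes examined one by one, 142 lost their call under that block, 77 without crypt K12 and 79 without crypt K21. Differences turned for Asph (0.17), Cklf (0.15) and Xbp1 (0.040) without cross-hybridizing types and for Prdx4 (0.0067) with the median of probe sets; the cause was not tested. Of 68 lists, 15 had a median difference that moved after quantile normalization by more than the pooled SD of the list's median signal between arrays of a group. Signals near background limit the size of the differences of 11 of the 40 largest rises and 9 of the 40 largest falls.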

Other observations

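Calcium-binding and sugar-binding proteins of the cell edge were measured as well. Of the annexin, S100 and galectin genes (25 tested of 39 listed), 7 rose and 2 fell, with a median of 0.23. Lgals3, a galectin gene of apical sorting, stood at 8.76, 9.67 and 10.94 in crypts and at 12.76, 13.12 and 12.68 in villi and rose by 3.06 ± 0.48 (limma adjusted p = 0.003). S100a6 rose by 3.19 ± 0.37. The arrays of the groups did not overlap for either gene. Of 66 kinesin, dynein and tubulin genes 12 (7 without crypt K12 and 5 without crypt K21) rose and 13 fell. These were 18.2% and 19.7%, beside 17.2% and 15.2% over all genes. Klc4, a kinesin light chain gene, rose by 1.58 ± 0.18, and the motor gene Kif21a had -2.19 ± 0.30.

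Enzymes that build surface glycans changed in both directions, 19.5% rising and 16.9% falling. Those shares lay near the 17.2% and 15.2% over all genes. Of 77 glycosyltransferase genes 15 (7 without crypt K12, 4 without crypt K21 and 8 without villus V275) rose and 13 (8 without crypt K12 and 6 without crypt K21) fell, with a median of -0.0018 (-0.038 to 0.019 with 1 array left out and -0.021 after quantile normalization). St3gal4, a sialyltransferase gene, stood at 9.70, 10.46 and 11.09 in crypts and at 12.45, 12.57 and 12.75 in villi and rose by 2.17 ± 0.32 (limma adjusted p = 0.0023). Fut8, which adds the core fucose of N-glycans, stood at 9.32, 9.64 and 9.42 in crypts and at 8.28, 6.84 and 8.11 in villi and had -1.72 ± 0.36 (limma adjusted p = 0.0094). Crypts and villi were separated for both genes, in opposite order. B4galt6, of glycolipid synthesis, rose by 1.96 ± 0.21. Of 49 genes of G protein subunits and their partners 10 rose and 2 fell, and of 38 AMPK-related and calmodulin-dependent kinase genes 8 (5 without crypt K12 or crypt K21) rose and 7 (4 without crypt K21) fell, among the former Stk17b (2.37 ± 0.40).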
